A study of Saccharomyces cerevisiae with 24 samples.

Results

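In Saccharomyces cerevisiae cells that already lacked SNF1, loss of TOR1 came with large falls of single genes under ammonia limitation. Examples are SPL2, SUL1 and OPT2, of phosphate, sulfate and nitrogen supply. SUL1 and OPT2 also fell with TOR1 loss where SNF1 was present, and SPL2 had no measurable level there. Of 48 amino acid synthesis genes 12 fell, against 3.1% of all genes, and members of this list also fell with TOR1 loss where SNF1 was present. Many changes were small, and their balance of rises and falls depends on the scaling of the arrays. The comparison was defined by sample titles, as the 3 arrays of snf1Δtor1Δ cells against the 3 arrays of snf1Δ cells, both grown in the nitrogen-limited medium (N-lim), and it covers 6 of the 24 arrays of the series. Both groups lack SNF1 and differ by label in TOR1. Their culture numbers also differ (9 to 11 in snf1Δ and 1 to 3 in snf1Δtor1Δ), and whether these mark separate series of cultures is not stated, so genotype and any such series cannot be told apart. The genotype label of the snf1Δ cultures is spelled sfn1Δ, whereas the titles and the study's design give snf1. The other groups used below are the reference strain and tor1Δ in the N-lim medium, and snf1Δ and snf1Δtor1Δ under glucose limitation (C-lim), with 3 arrays each. Per the labels' protocols these were aerobic chemostats of 0.5 L, kept at pH 5 and 30 °C and diluted at 0.1 per hour. Ammonium sulfate at 1 g/L limited growth in the first medium, and glucose at 10 g/L in the second. A chemostat sets the same growth rate for all strains. The series' design text calls the 3 cultures of a strain biological replicates. The sources used here give no strain background, mating type, deletion cassette or number of clones.

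Tor1 is a kinase of TOR complex 1 (TORC1), which promotes growth when nitrogen and amino acids are ample and holds back nitrogen scavenging, stress genes and autophagy. Its close relative Tor2 also enters TORC1, so cells without TOR1 keep a reduced TORC1 and stay viable. Snf1, the AMP-activated protein kinase of yeast, is best known for the switch to carbon sources other than glucose and also acts on nitrogen and stress genes. The series was designed to look at how the Snf1 and TORC1 pathways interact.

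The targeted genes were at the level their labels call for. TOR1 read 7.64, 7.61 and 7.74 on the log2 scale in snf1Δ and 2.27, 2.26 and 2.26 in snf1Δtor1Δ. The second group lay at the floor of the data (group means under log2 3), so TOR1 was at least 25.3-fold lower. SNF1 averaged 2.15 in both groups against 8.90 in the reference strain under N-lim. TOR2, the remaining TOR kinase, read 8.21, 8.11 and 8.07 in snf1Δ and 8.52, 8.20 and 8.30 in snf1Δtor1Δ, groups that overlap, and its difference of 0.21 did not pass (limma, adjusted p = 0.123). In the other groups TOR1 averaged 7.86 in the reference and 2.27 in tor1Δ under N-lim, and 6.94, 7.14, 2.27 and 2.27 in the reference, snf1Δ, tor1Δ and snf1Δtor1Δ under C-lim. In the same order TOR2 averaged 8.19 and 8.29, and then 7.90, 7.94, 8.12 and 8.20. SNF1 averaged 8.95 in tor1Δ under N-lim, and 8.75, 2.15, 8.84 and 2.15 in the 4 strains under C-lim. ARP3 and YAE1, the neighbours of TOR1, differed by -0.10 and -0.00 and did not pass (adjusted p = 0.28 and 0.997). Of the neighbours of SNF1, SNM1 did not pass (0.11, adjusted p = 0.461), and YDR476C rose by 0.19 (adjusted p = 0.0394), a call that leaving out any 1 of the 6 arrays ended. Genes of mating type a, such as the receptor STE2 (from 11.77 to 11.95 over the 6 arrays), were high in both groups, and of 5 alpha-specific genes MF(ALPHA)2 alone lay at the floor in both.

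Within a group, the correlation of arrays across genes was 0.9956 to 0.9987. The snf1Δtor1Δ arrays had slightly higher medians (7.957 to 7.988) than the snf1Δ arrays (7.893 to 7.923), and a wider spread, with a median SD per gene of 0.0971 against 0.0584. With 3 arrays per group, their number limits the precision. Transcript levels are relative to the RNA loaded, so fewer cells of a kind and less RNA per cell cannot be told apart.

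Of 5449 genes tested, 578 (10.6%) passed at an adjusted p under 0.05 in snf1Δtor1Δ against snf1Δ. Of these, 409 (7.51%) were higher and 169 (3.1%) were lower in snf1Δtor1Δ. Most of the changes were small. The median called rise was 0.29 and the median called fall -0.36 on the log2 scale, and only 4 rises (0.0734%) and 11 falls (0.202%), TOR1 among them, reached 2-fold. The groups did not overlap in 565 of the 578 genes, against 33% of all genes (23.8% with all snf1Δtor1Δ arrays higher and 9.19% with all lower). The excess of rises depends on the scaling: the median difference over all genes was 0.0537, and 63.6% of all genes lay above 0. With each array centred on its median, 167 genes were higher and 271 lower, and with quantile normalization repeated the counts were 181 and 211. The number of called genes also rested on single cultures. It fell to 366, 241 and 323 without snf1Δ replicates 9, 10 and 11, and to 324 without snf1Δtor1Δ replicate 1.

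**Figure D1:**
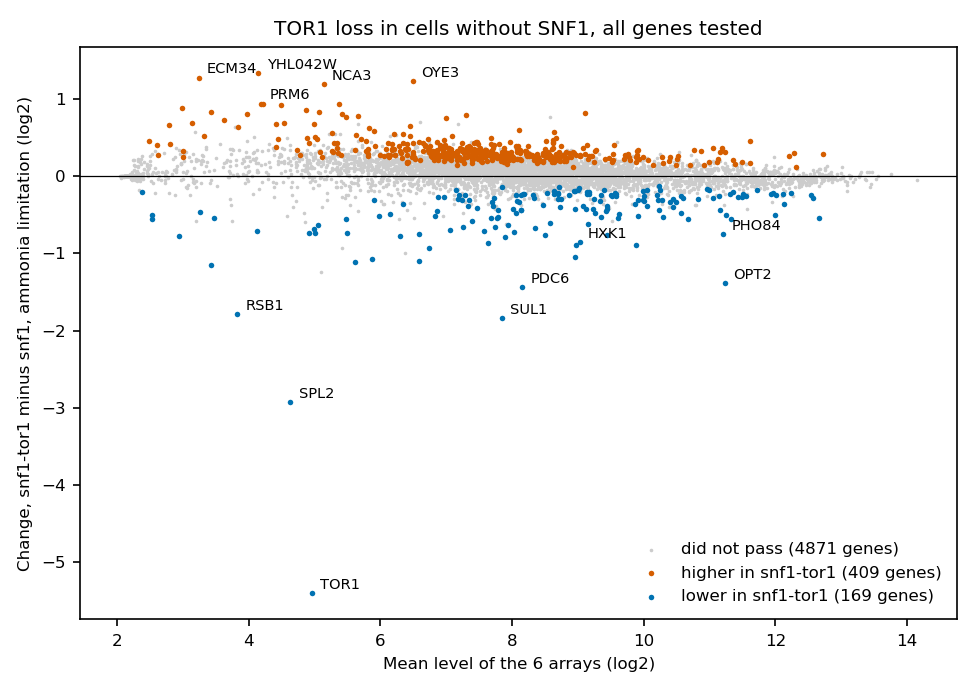
Change with TOR1 loss in snf1Δ cells under ammonia limitation (log2, snf1Δtor1Δ minus snf1Δ, vertical axis) against the mean level of the 6 arrays (log2, horizontal axis), 1 point per gene. The 409 higher and 169 lower genes are coloured, most of them lie close to 0, and TOR1, SPL2, SUL1 and RSB1 lie farthest below it.

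After TOR1 itself, the largest fall was in a gene of phosphate supply. SPL2, a small protein that restrains low-affinity phosphate uptake, read 5.82, 6.19 and 6.26 in snf1Δ and 3.24, 3.17 and 3.10 in snf1Δtor1Δ. The groups were far apart, with the second close to the floor. The fall was by 2.92 ± 0.26 (SE), or 7.57-fold (limma, adjusted p = 1.67e-06). PHO84, the high-affinity phosphate transporter, read 11.44, 11.61 and 11.71 in snf1Δ and 10.81, 10.73 and 10.95 in snf1Δtor1Δ. Every snf1Δtor1Δ array was lower, and PHO84 fell by 0.76 ± 0.13 (adjusted p = 0.00196). PHO5, the secreted acid phosphatase, fell by 0.49 ± 0.13 (adjusted p = 0.0212), and VTC1, a subunit of the vacuolar polyphosphate polymerase complex, fell by 0.26 ± 0.05 (adjusted p = 0.00476). These were the 4 of 22 measured targets of the phosphate factor Pho4 that passed, all downward, against 3.1% of all genes. The list's median was -0.13. With median-centred arrays 9 of the 22 fell, and with repeated quantile normalization 6.

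The sulfur and ethanol genes gave the next large falls. SUL1, a high-affinity sulfate permease, read 8.77, 8.83 and 8.70 in snf1Δ and 6.99, 6.79 and 7.0 in snf1Δtor1Δ. The groups were widely separated, and SUL1 fell by 1.84 ± 0.19, or 3.58-fold (limma, adjusted p = 1.01e-05). Of 28 measured sulfate and methionine genes, 3 fell, against 3.1% of all genes (SUL1, MET28 by 0.23 and CYS4 by 0.21). MET31, a regulator of the pathway, was the 1 that rose (by 0.52). Without snf1Δ replicate 10 or 11 or snf1Δtor1Δ replicate 1 only 1 of the falls passed. PDC6, a minor pyruvate decarboxylase known for its induction when sulfur is scarce, read 8.76, 9.04 and 8.83 in snf1Δ and 7.36, 7.53 and 7.43 in snf1Δtor1Δ. It was lower on every snf1Δtor1Δ array and fell by 1.43 ± 0.15, or 2.70-fold (adjusted p = 8.58e-06). PDC6 is 1 of 4 genes that fell among 26 measured genes of glycolysis and ethanol formation, against 3.1% of all genes. The others were HXK1, a hexokinase (by 0.86), ADH5, an alcohol dehydrogenase (by 0.71), and ENO1, an enolase (by 0.25), and the list's median was -0.08.

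Genes of nitrogen scavenging held some large falls, and most of them did not pass. OPT2, a member of the oligopeptide transporter family, read 11.95, 11.88 and 11.95 in snf1Δ and 10.62, 10.39 and 10.63 in snf1Δtor1Δ. The groups were well apart, and OPT2 fell by 1.38 ± 0.12, or 2.60-fold (limma, adjusted p = 1.37e-06). NIT1, a nitrilase, read 9.26, 9.74 and 9.43 against 8.19, 8.55 and 8.54. Again no array overlapped the other group, with a fall by 1.05 ± 0.14 (adjusted p = 7.78e-05). YIL165C, which lies next to NIT1, fell by 0.89 ± 0.09 (adjusted p = 4.04e-06). Nitrogen catabolite repression is the control that shuts off scavenging genes when good nitrogen sources are present. Of its 28 measured targets 6 fell and 1 rose, against 3.1% and 7.51% of all genes, with a median of -0.12. Besides OPT2 and NIT1, PUT4 (a proline permease) fell by 0.50, CPS1 (a vacuolar carboxypeptidase) by 0.36, and PUT1 (proline oxidase) by 0.24. Leaving out any 1 of the 6 arrays ended the calls of PUT4 and PUT1, and 3 or 4 falls passed in each of these fits, 3 without any of the snf1Δ arrays or snf1Δtor1Δ replicate 1. The gene that rose was GZF3, a GATA repressor of the pathway, by 0.31. Of 11 measured genes of ammonium assimilation 2 passed, GLN1 (glutamine synthetase, lower by 0.22) and IDP1 (isocitrate dehydrogenase, lower by 0.23). Only 1 of the latter 2 passed without any of the snf1Δ arrays or snf1Δtor1Δ replicate 1. Of 20 amino acid permeases PUT4 alone passed, and 0 did when any 1 array was left out.

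Some of the other large falls concern the cell surface, sugars and stress. RSB1, which exports sphingoid long-chain bases, read 4.64, 4.47 and 5.04 in snf1Δ and 3.01, 3.04 and 2.75 in snf1Δtor1Δ. The latter mean lay at the floor, so RSB1 was at least 3.29-fold lower (limma, adjusted p = 1.59e-06). MAL32, a maltase with a near-identical copy (MAL12) that its probe set may not tell apart, read 3.94, 3.96 and 4.12 against 2.78, 2.68 and 3.13. It was at least 2.01-fold lower (adjusted p = 0.00564). STL1, a glycerol transporter, fell by 1.08 ± 0.22 (adjusted p = 0.00476). The SUR7 family membrane proteins YNL194C and FMP45 fell by 1.11 ± 0.35 and 1.10 ± 0.27 (adjusted p = 0.0481 and 0.0147). Leaving out any 1 of the 6 arrays ended the call of YNL194C, and leaving out snf1Δ replicate 11 or snf1Δtor1Δ replicate 1 ended that of FMP45 (adjusted p = 0.0504 and 0.0633). CTT1, the cytosolic catalase, read 7.97, 8.12 and 8.11 in snf1Δ and 7.09, 7.32 and 7.19 in snf1Δtor1Δ, lower throughout, and fell by 0.87 ± 0.20 (adjusted p = 0.00957). CTT1 lies next to PDC6. DIA3 and BDH2 fell by 0.93 and 0.89 (adjusted p = 0.0136 and 0.00136), and the call of DIA3 was lost without snf1Δ replicate 11 (adjusted p = 0.0525).

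**Figure D2:**
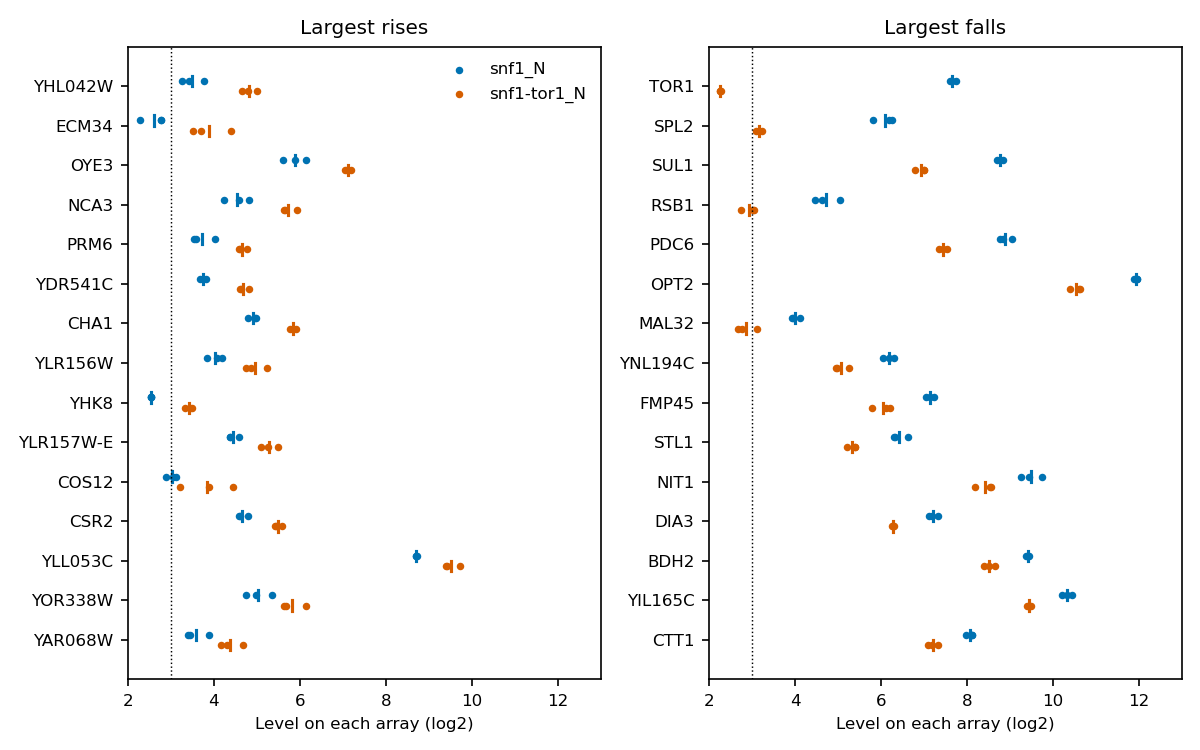
Level on each array (log2, horizontal axis) of the 15 genes with the largest rises and the 15 with the largest falls, TOR1 included, in snf1Δ (blue) and snf1Δtor1Δ (orange), with short bars at the group means and a dotted line at the floor, log2 3. The groups do not overlap in any of them, which the rule for naming them required, and the falls are the larger changes.

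The largest rises came from dim genes. YHL042W read 3.25, 3.43 and 3.76 in snf1Δ and 4.65, 4.99 and 4.80 in snf1Δtor1Δ, a rise of 1.33 ± 0.15, or 2.52-fold (limma, adjusted p = 2.05e-05). Its neighbour ECM34 read 2.28, 2.77 and 2.77 against 3.53, 4.41 and 3.70, and was at least 1.84-fold higher than the floor (adjusted p = 0.000132, and 0.0522 with the 6 arrays fitted alone). Both were higher on all snf1Δtor1Δ arrays. OYE3, an NADPH oxidoreductase of the old yellow enzyme family, read 6.14, 5.61 and 5.90 in snf1Δ and 7.09, 7.19 and 7.06 in snf1Δtor1Δ. It was brighter than the other genes of this group and clearly separated, with a rise of 1.23 ± 0.16, or 2.35-fold (adjusted p = 7.47e-05). Its relative OYE2 rose by 0.46 ± 0.06 (adjusted p = 5.47e-05). Of 28 measured genes of oxidative defence, 4 rose (OYE3, OYE2, the regulator YAP1 by 0.29 and the mitochondrial thioredoxin TRX3 by 0.24) and 3 fell (CTT1, HYR1 by 0.31 and GRX1 by 0.28). Over all genes 7.51% rose and 3.1% fell.

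CHA1, which breaks down serine and threonine, read 4.99, 4.95 and 4.80 in snf1Δ and 5.78, 5.91 and 5.83 in snf1Δtor1Δ. It was higher throughout and rose by 0.93 ± 0.11, or 1.90-fold (limma, adjusted p = 2.13e-05). NCA3 rose by 1.19 ± 0.30 (adjusted p = 0.0179), a call lost under 3 alternatives. Among them were fits without snf1Δ replicate 10 or snf1Δtor1Δ replicate 2 (adjusted p = 0.094 and 0.0512). CSR2, an arrestin-related adaptor of ubiquitin ligation, rose by 0.83 ± 0.10 (adjusted p = 6.52e-05). YLL053C and AQY2, whose locus tags follow each other and of which AQY2 is an aquaporin, rose by 0.81 ± 0.09 and 0.79 ± 0.11 (adjusted p = 2.05e-05 and 0.000262). YLR156W, which has identical copies elsewhere in the genome, and YLR157W-E rose by 0.91 and 0.85 (adjusted p = 0.00482 and 7.73e-05). The other large rises were YDR541C (0.93), COS12 (0.83), YOR338W (0.80) and YAR068W (0.80). Calls of the last 3 were each lost under 3 or more alternatives, and with array weights the rise of COS12 was 0.36.

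Transporters of drugs and weak acids moved both ways. Of 19 measured, 4 rose and 2 fell, against 7.51% and 3.1% of all genes, and the median was 0.11. FLR1, a multidrug exporter, read 6.69, 6.54 and 6.61 in snf1Δ and 7.42, 7.22 and 7.46 in snf1Δtor1Δ, higher on all arrays, and rose by 0.75 ± 0.12 (limma, adjusted p = 0.000606). AQR1, ATR1 and the regulator PDR1 rose by 0.52, 0.49 and 0.32 (adjusted p = 0.0356, 0.00452 and 0.00796), and RSB1 and the weak acid exporter PDR12 (by 0.63) fell. Leaving out any 1 array ended the call of AQR1, as did either other scaling. YHK8, a presumed drug transporter outside this list, read 2.55, 2.54 and 2.54 against 3.44, 3.33 and 3.49, at least 1.34-fold above the floor (adjusted p = 2.51e-08).

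Members of the biosynthetic and ribosomal lists that passed were nearly all lower. Of 48 measured amino acid biosynthesis genes controlled by Gcn4, the activator that answers amino acid shortage, 12 fell and 0 rose. Over all genes 3.1% fell and 7.51% rose. The list's median was -0.10 against 0.05 over all genes. The other 36 members of the list did not pass. ARG1 (argininosuccinate synthetase) read 12.24, 12.28 and 12.23 in snf1Δ and 11.72, 11.76 and 11.77 in snf1Δtor1Δ. The groups were tight and apart, and ARG1 fell by 0.50 ± 0.05 (limma, adjusted p = 1.34e-05). LEU2 (leucine synthesis) was also lower on every snf1Δtor1Δ array and fell by 0.55 ± 0.07 (adjusted p = 6.92e-05). ARG8 and ARG3 of arginine synthesis fell by 0.54 and 0.48, SER3 of serine synthesis by 0.43 and ARO4 of aromatic synthesis by 0.39. The count was 16 with median-centred arrays and 12 with repeated quantile normalization, and lay between 7 and 9 when single arrays were left out (7 without snf1Δ replicate 10 or 11). With TOR1 loss in the reference strain 7 of the 48 fell and 1 rose, against 2.2% and 0.716% of all genes. In snf1Δ cells under glucose limitation 16 fell and 0 rose, against 6.44% and 10.8% of all genes. The difference between the backgrounds passed for 0 of the 48. In the main comparison LEU2 was also the 1 of 6 measured selection marker genes that passed. The sources used here do not name the markers of these strains, and their part in its fall was not tested.

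Of 70 measured genes of the mitochondrial ribosome, 12 fell and 0 rose, against 3.1% and 7.51% of all genes. Of the 70, 64 lay below 0, with a median of -0.11, whereas 63.6% of all genes lay above 0. The largest falls were in MRP4 (by 0.39), MRPL35 (by 0.32) and MRPL40 (by 0.31). The count was 18 with median-centred arrays, 17 with repeated quantile normalization, and between 3 and 16 when 1 array was left out, with 3 without snf1Δtor1Δ replicate 1, 4 and 7 without snf1Δ replicates 10 and 11. Of 128 cytosolic ribosomal protein genes 5 fell (RPS9A, RPL12A, RPL17B, RPS9B and RPS0B, by 0.22 to 0.32), a share close to the 3.1% of all genes, and the count was 13 and 1 under the other scalings and 1 without snf1Δ replicate 10 or 11 or snf1Δtor1Δ replicate 1, and 2 without snf1Δ replicate 9. Many of these genes have near-identical copies that a probe set may not tell apart. Ribosome biogenesis, the group TORC1 is best known for promoting, had 1 of 100 genes called, REI1, higher by 0.37 (limma, adjusted p = 0.0207). Over all genes 10.6% were called. Of 24 RNA polymerase I and III genes 0 passed in the limma fit, and RPC34 had the smallest p (0.16, adjusted p = 0.164). Of 28 genes driven by the stress factors Msn2 and Msn4, 4 fell and 0 rose, against 3.1% and 7.51% of all genes. The list's median was -0.32. Those that fell were CTT1, HXK1, ALD3 (aldehyde dehydrogenase, by 0.63) and HSP12 (a small stress protein, by 0.29), and 8 and 6 fell under the other scalings. The count was 2 without any 1 of the snf1Δ arrays or snf1Δtor1Δ replicate 3.

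Other lists held members that rose, against 7.51% of all genes. Of 33 measured proteasome genes 7 rose and 0 fell. All 33 lay above 0 (63.6% of all genes did), with a median of 0.12 and a highest change of 0.22, in RPT4, an ATPase of the regulatory particle (limma, adjusted p = 0.00576). Only 1 passed with median-centred arrays and 9 with repeated quantile normalization. Without snf1Δ replicates 9, 10 and 11 the proteasome count was 3, 4 and 2, and without snf1Δtor1Δ replicates 1, 2 and 3 it was 10, 4 and 4. Among 30 effectors of TORC1, 6 rose and 0 fell. They were the kinases SCH9 (by 0.28), ATG1 (by 0.30) and NPR1 (by 0.21), the nitrogen activator GLN3 (by 0.27), and the phosphatase regulators TIP41 and RRD1 (by 0.24 and 0.21), and 1 passed under each of the other scalings. Without any of the snf1Δ arrays 2 of the effectors passed, and 3 without snf1Δtor1Δ replicate 1. Of 12 measured TOR complex subunits, SLM1 and SLM2, substrates of TORC2 kept in this list, rose by 0.37 and 0.33, and the count of rises was 1 to 4 when single arrays were left out. PIB2, a vacuolar activator of TORC1, rose by 0.31 ± 0.05 (adjusted p = 0.0014) and was 1 of 16 in its list of vacuolar TORC1 regulators, and it kept that call under both other scalings. Of 36 autophagy genes 6 rose and 1 fell. ATG36, ATG11, ATG1, ATG7, VPS30 and VPS34 rose by 0.23 to 0.41, and ATG41 fell by 0.43, with 1 rise under either of the other scalings. No rise passed without snf1Δtor1Δ replicate 1, 1 did without snf1Δ replicate 10 or 11, 2 without snf1Δ replicate 9, and 4 without either other array. Among 45 subunits of respiratory complexes and ATP synthase 4 rose, COX7 (by 0.37), TIM11 (by 0.32), COX12 (by 0.16) and COR1 (by 0.15), a share of 8.89% that is close to that of all genes, with 1 and 4 rises under the other scalings.

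**Figure D3:**
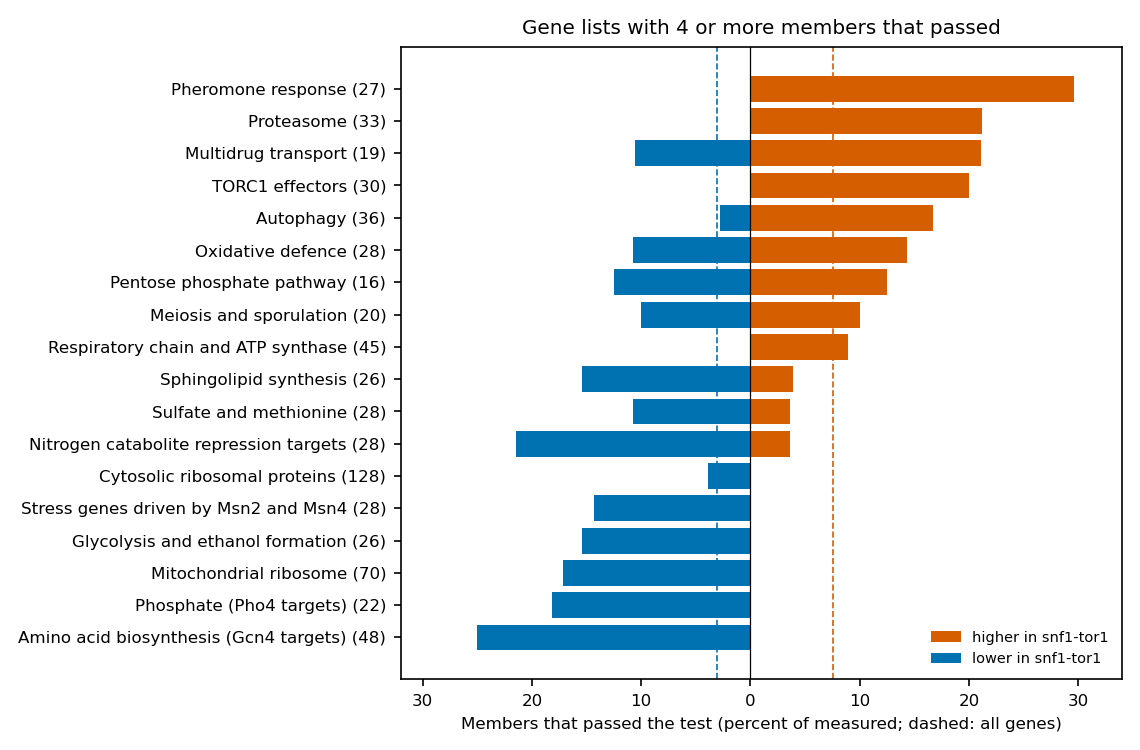
Members that passed the test in each gene list with 4 or more of them, as a percent of the measured members (number in parentheses), higher in snf1Δtor1Δ to the right and lower to the left. Dashed lines mark the shares over all genes, 7.51% and 3.1%. Many of the plotted lists exceed them. Among these are the amino acid, phosphate and mitochondrial ribosome lists on the left and the pheromone and proteasome lists on the right.

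Of the 53 lists 10 had 0 members that passed in the limma fit, among them the TCA cycle (16 genes), ergosterol synthesis (30), phospholipid synthesis (23), fatty acid synthesis (16), peroxisomal beta-oxidation (19) and the protein kinase A pathway (14). Their best members were SDH2 (0.23, adjusted p = 0.0531), ERG7 (0.17, adjusted p = 0.159), ITR2 (0.23, adjusted p = 0.107), ELO3 (-0.24, adjusted p = 0.0916), SPS19 (-0.21, adjusted p = 0.221) and IRA2 (0.20, adjusted p = 0.164). Over all genes 1420 had an unadjusted p under 0.05. In sphingolipid synthesis 4 of 26 genes fell, against 3.1% of all genes (RSB1, SUR2 by 0.37, TSC10 by 0.19 and SCS7 by 0.18), and LCB5 rose by 0.32. The falls were 2 without snf1Δ replicate 10 or 11 or snf1Δtor1Δ replicate 1.

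To ask what TOR1 loss did while SNF1 was present, tor1Δ was compared with the reference strain in the same medium. The means of these groups do not enter the main comparison, but all 24 arrays share 1 estimate of the spread. In tor1Δ against the reference 159 genes (2.92%) passed, 39 higher (0.716%) and 120 lower (2.2%). Of the 169 genes lower in snf1Δtor1Δ, 51 were also lower in tor1Δ (30.2% of the first list and 42.5% of the second). Of the 409 higher genes, 25 were also higher in tor1Δ (6.11% and 64.1%), and 5 were lower. The difference between the 2 effects of TOR1 loss passed for 38 genes (0.697%), 32 (0.587%) with a more positive and 6 (0.11%) with a more negative effect in snf1Δ cells. Calls in 1 background and not in the other are therefore mostly not shown to differ. With median-centred arrays or repeated quantile normalization 19 genes passed, and 4 once the dimmest genes were left out.

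The genes with the largest tested differences were SPL2 and PHO84. SPL2 read 2.36, 2.30 and 2.61 in the reference and 2.37, 2.33 and 2.30 in tor1Δ, all at the floor. In snf1Δ cells it was high and TOR1 loss lowered it, and the fitted effects differed by -2.83 ± 0.37 (limma, adjusted p = 6e-04). As SPL2 had no measurable level with SNF1 present, neither has an effect of TOR1 loss there, and the same holds for the size of this difference. PHO84 read 5.12, 4.56 and 5.07 in the reference and 5.97, 6.15 and 6.34 in tor1Δ. There it rose with TOR1 loss, by 1.24 ± 0.13 (adjusted p = 2.49e-05), whereas it fell in snf1Δ cells, where its level was far higher. The effects differed by -1.99 ± 0.19 (adjusted p = 1.35e-05). RSB1 read 6.99, 6.74 and 6.76 in the reference and 7.21, 6.35 and 6.55 in tor1Δ. Those groups overlap, and the fitted difference was -1.66 ± 0.22 (adjusted p = 0.000652), a size that rests on the fall of RSB1 to the floor in snf1Δtor1Δ. OPT2 fell in both backgrounds, by 0.55 with SNF1 and by 1.38 without it, a difference of -0.83 ± 0.17 (adjusted p = 0.03). HXK1 also fell in both, by 0.39 and 0.86 (difference -0.47, adjusted p = 0.0479). The OPT2 and HXK1 differences were each lost when single arrays were left out, in 7 and 11 of 12 cases.

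**Figure D4:**
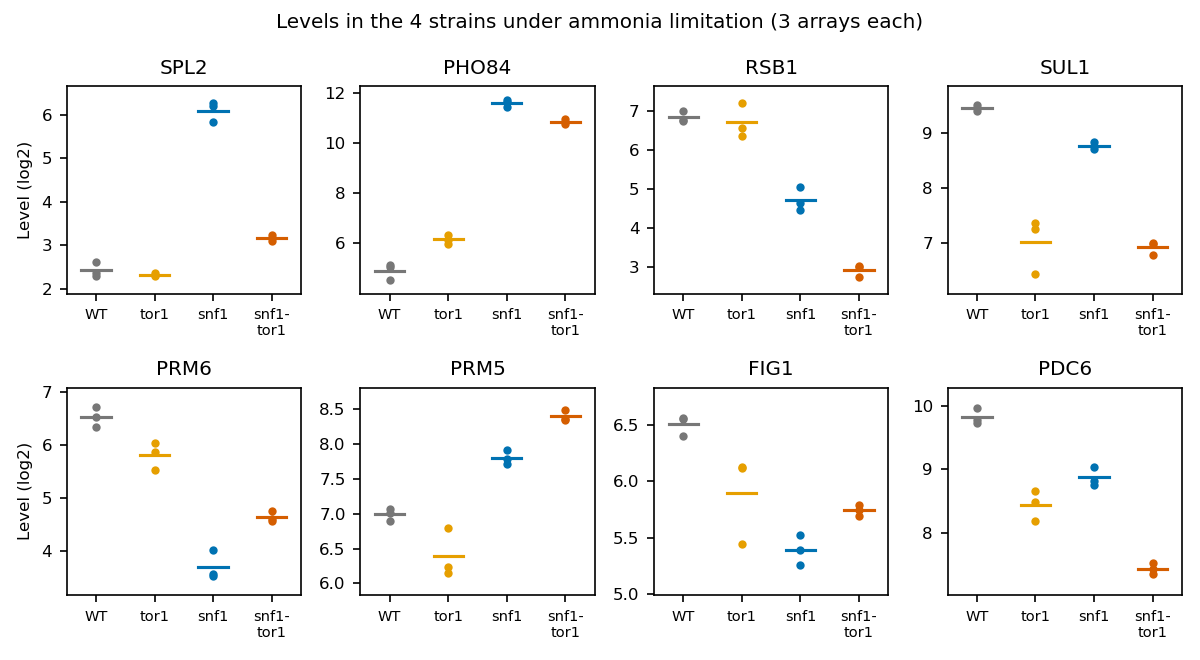
Level (log2, vertical axes) on each of the 3 arrays of the reference (WT), tor1Δ, snf1Δ and snf1Δtor1Δ under ammonia limitation for 8 genes, with bars at the group means. PHO84 is high in both strains without SNF1 and SPL2 in snf1Δ, PRM6, PRM5 and FIG1 are lower in tor1Δ than in the reference but higher in snf1Δtor1Δ than in snf1Δ, and SUL1 and PDC6 are lower with TOR1 loss in both backgrounds.

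Some pheromone response genes changed in opposite directions in the 2 backgrounds, and 3 of 27, PRM6, PRM5 and PRM3, passed in both. These genes are induced through the receptor, G protein and MAP kinase cascade when haploid cells meet a partner of the other mating type. Of 27 measured, 8 rose and 0 fell with TOR1 loss in snf1Δ cells, against 7.51% and 3.1% of all genes, with a median of 0.19. With TOR1 loss in the reference strain 7 fell and 0 rose, against 2.2% and 0.716% of all genes, with a median of -0.21. PRM6, a pheromone-induced potassium transporter, read 4.02, 3.58 and 3.54 in snf1Δ and 4.58, 4.77 and 4.61 in snf1Δtor1Δ, against 6.35, 6.72 and 6.53 in the reference and 5.53, 6.04 and 5.86 in tor1Δ. The 2 groups did not overlap in either background, and the order was opposite. PRM6 rose by 0.94 ± 0.12 without SNF1 (limma, adjusted p = 7.73e-05) and fell by 0.72 ± 0.12 with it (adjusted p = 0.00214), and the effects differed by 1.66 ± 0.17 (adjusted p = 2.6e-05).

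PRM5 and PRM3, also pheromone-induced membrane proteins, differed by 1.19 and 0.97 between the backgrounds (limma, adjusted p = 0.00823 and 0.00303). PRM5 read 7.92, 7.79 and 7.72 in snf1Δ and 8.50, 8.36 and 8.35 in snf1Δtor1Δ, and PRM3 read 7.33, 7.31 and 7.15 against 8.01, 7.58 and 7.46. Both were higher on all snf1Δtor1Δ arrays. FIG1, which acts in calcium uptake during mating, had a change of 0.35 in snf1Δ cells (adjusted p = 0.0654) and fell by 0.61 in the reference strain (adjusted p = 0.0071), and the effects differed by 0.96 (adjusted p = 0.00891). The agglutinin AGA1, the MAP kinase FUS3 and the transcription factor KAR4 differed by 0.55, 0.41 and 0.47 (adjusted p = 0.03, 0.0442 and 0.0479). With PRM6, PRM5, PRM3 and FIG1 these made 7 of 27 members with a difference, all positive, against 0.587% of all genes. The other genes of the list that rose in snf1Δ cells were upstream members, the kinases STE11 (by 0.44) and STE7 (by 0.23), the G protein GPA1 (by 0.32) and the transcription factor STE12 (by 0.27). The 8 rises were 4 with median-centred arrays, 3 with repeated quantile normalization, and 2 to 7 when single arrays were left out, with 2 without snf1Δ replicate 10 or 11, 3 without snf1Δtor1Δ replicate 1 and 4 without snf1Δ replicate 9. The 7 differences were 4, 3, and 4 to 6 under the same changes. With genes under the 25th percentile left out, 2 positive differences passed over all genes. Of 8 a-specific genes 0 passed in snf1Δ cells in the limma fit, and AXL1 had the smallest p (0.19, adjusted p = 0.151). Of 5 alpha-specific genes 0 passed in snf1Δ cells, and 3 fell with TOR1 loss in the reference strain (AFB1 by 1.11, STE3 by 0.69 and MF(ALPHA)1 by 0.62). The difference between backgrounds passed for AFB1 (0.98) and SAG1 (0.62).

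**Figure D5:**
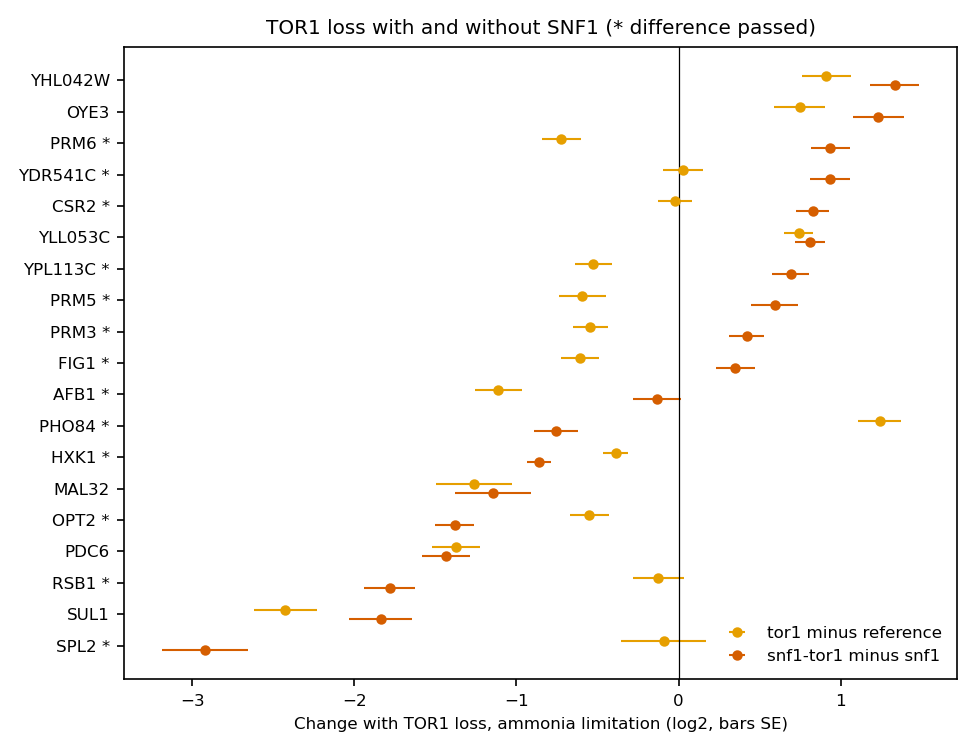
Change with TOR1 loss (log2, horizontal axis, bars SE) in the reference background (tor1Δ minus reference, yellow) and in snf1Δ cells (snf1Δtor1Δ minus snf1Δ, orange) under ammonia limitation, for the genes named for their difference and 6 further genes with large changes. An asterisk marks genes whose difference passed, and PRM6, PRM5, PRM3, FIG1, YPL113C and PHO84 lie on opposite sides of 0.

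YPL113C, a presumed dehydrogenase, differed by 1.22 (0.69 without SNF1 and -0.53 with it, limma, adjusted p = 6e-04). CSR2 differed by 0.85 (adjusted p = 0.00823) and did not pass in the reference background (-0.02). The fitted difference of YDR541C was 0.91 (adjusted p = 0.0185), and it lay at the floor in both strains with SNF1. AFB1 had -0.13 without SNF1 and fell by 1.11 with it (difference 0.98, adjusted p = 0.03, a call that 8 of 12 omissions of an array ended).

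For several genes with large changes the difference between backgrounds did not pass, and its interval shows how large it could be. PDC6 fell by 1.43 without SNF1 and by 1.37 with it. The difference of -0.06 (95% interval -0.51 to 0.38) did not pass (limma, adjusted p = 0.958). SUL1 fell by 1.84 and by 2.42 (difference 0.59, adjusted p = 0.358), with an interval of 0.01 to 1.16 that leaves out 0 before adjustment and reaches past 2-fold. MAL32 also passed in both backgrounds, and its fall to the floor in snf1Δtor1Δ has no measured size to compare. YLL053C rose by 0.81 and by 0.74 (difference 0.07, interval -0.20 to 0.34, adjusted p = 0.884). ARG1 fell by 0.50 and by 0.39 (difference -0.11, interval -0.27 to 0.05, adjusted p = 0.567). For STL1 and CTT1, which fell without SNF1 and had changes of -0.00 and -0.06 with it, the differences of -1.08 and -0.80 did not pass (adjusted p = 0.115 and 0.216).

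The level in the reference strain was also set beside the calls. Of the 409 higher genes 111 (27.1%), and of the 169 lower genes 43 (25.4%), had a mean in snf1Δtor1Δ nearer to the reference strain than the mean in snf1Δ was. The share over all genes was not computed. The snf1Δ mean enters both the call and the distance, so these shares only describe the called genes. SPL2 is 1 of the 43 lower genes (means 2.43 in the reference, 6.09 in snf1Δ and 3.17 in snf1Δtor1Δ). RSB1 went the other way (6.83, 4.72 and 2.93), as did PDC6 (9.82, 8.87 and 7.44).

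Under glucose limitation TOR1 loss in snf1Δ cells called 937 genes (17.2%), 586 higher (10.8%) and 351 lower (6.44%). Of the 409 genes higher under ammonia limitation 116 were also higher there (28.4% of these and 19.8% of those), and 13 were lower. Of the 169 lower genes 56 were also lower there (33.1% and 16%), and 7 were higher. The difference between media passed for 268 genes (4.92%), 161 (2.95%) with a more positive and 107 (1.96%) with a more negative effect under ammonia limitation. This difference uses the ammonia arrays of the main comparison, so values are given side by side.

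The largest of these differences came from changes under glucose limitation. HXT1, a low-affinity glucose transporter, read 10.54, 10.62 and 10.61 in snf1Δ and 10.38, 10.40 and 10.45 in snf1Δtor1Δ under ammonia limitation, where it did not pass (-0.18, limma, adjusted p = 0.349). Under glucose limitation it read 6.10, 5.58 and 5.93 against 2.72, 2.81 and 3.10, at least 7.30-fold lower, and the fitted effects differed by 2.81 ± 0.17 (adjusted p = 6.16e-09), with the glucose effect a bound. PCK1, an early enzyme of gluconeogenesis, had -0.14 under ammonia limitation and rose by 2.55 under glucose limitation (difference -2.69 ± 0.19, adjusted p = 7.26e-08). FBP1, which follows later in gluconeogenesis, lay at the floor under ammonia limitation in both strains and rose by 2.05 under glucose limitation. The iron genes FIT3, FIT2 and SIT1 had 0.04, -0.41 and 0.23 under ammonia limitation and fell by 3.49, 3.03 and 2.05 under glucose limitation. Of 28 measured iron uptake genes 1 passed under ammonia limitation, against 10.6% of all genes (FIT1, higher by 0.42, a call lost in 4 of 6 omissions of an array). Under glucose limitation 16 of the 28 fell and 2 rose, against 6.44% and 10.8% of all genes. The difference between media passed for 13 upward and 1 downward, against 2.95% and 1.96% of all genes. The upward count lay between 5 and 16 when single arrays were left out (lowest without snf1Δtor1Δ C-lim replicate 1).

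Other genes changed under ammonia limitation itself. OYE3 rose there by 1.23 and fell by 0.55 under glucose limitation, where it read 7.76, 7.50 and 7.40 in snf1Δ and 7.14, 7.04 and 6.85 in snf1Δtor1Δ. The order of the strains was opposite in the 2 media, and the difference was 1.78 ± 0.22 (limma, adjusted p = 0.000113). CTR3, a copper transporter, and MLS1, a malate synthase of the glyoxylate cycle, fell by 0.76 and 0.67 under ammonia limitation and rose by 1.30 and 1.20 under glucose limitation, with differences of -2.07 and -1.87 (adjusted p = 9.69e-05 and 3.24e-05). RSB1 lay at the floor in both strains under glucose limitation, so its fall was measurable under ammonia limitation only. PDC6 and OPT2 fell under ammonia limitation and had -0.28 and -0.21 under glucose limitation (adjusted p of the differences = 0.00326 and 5e-04). For PDC6 the difference was -1.16, whereas OPT2 lay at the floor under glucose limitation, so that its difference has no measured size. STL1 fell in both media, by 1.08 and to the floor, at least 11.8-fold, under glucose limitation (adjusted p of the difference = 9.7e-05). SUL1 fell in both, by 1.84 and 1.60, and that difference of -0.23 did not pass (adjusted p = 0.759).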

How the data were processed

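The values are log2 levels per probe set of Affymetrix yeast arrays, deposited as 1 table, for which the submitters' processing notes name RMA and affy. The sources used here give neither versions nor the arrays normalized together. RMA equalizes array distributions, and the small differences between array medians that remain move calls of small changes.

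Of 5716 probe sets, 5498 had 1 gene in the platform table and 218 had none there. The brightest probe set stood for each of 47 genes with several, which left 5449 genes. Names were updated from RefSeq (assembly R64) for 12. A linear model with 8 group means over the 24 arrays was run for all genes in limma (version 3.58.1, R 4.3.3; 16 residual and 1.71 prior degrees of freedom), with Benjamini-Hochberg adjustment within a comparison and a threshold of 0.05. The fit was tested on simulated data with independent noise and no offset between arrays, so that test does not cover the effect of scaling. Group means under log2 3 are called the floor.

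Named genes are SNF1, TOR1 and TOR2, the 15 largest non-overlapping rises and falls, the 8 largest differences each way, up to 6 called members of a list (or that with the smallest p), counts of 5 or fewer in full, and neighbours of the deleted genes. PIB2, PHO84 and others enter through lists. AGA1 and KAR4 complete a count of 7. YLL053C and AQY2 were paired, and the genes given for differences between backgrounds that did not pass were picked, after their values were seen. The members and the 53 lists were chosen with earlier results of these data known. Alternatives changed the arrays fitted, the variance model, the scaling, the filter on dim genes, the choice of probe set, array weights and single arrays. A centring on genes above the floor and a block on culture numbers were chosen after seeing the data.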

Additional observations from a re-analysis of the deposited data

Results flagged for a closer look

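Flagged here are genes named as the largest rises and falls or for a difference of effects, not genes named through lists alone. Of these, 15 differed, by the limma test, in the effect of TOR1 loss with and without SNF1 under ammonia limitation. Many were named because they passed this test, so their count is no support. Over all genes 38 (0.697%) passed. The more positive effects in snf1Δ cells were in PRM6 (1.66), YPL113C (1.22), PRM5 (1.19), AFB1 (0.98), PRM3 (0.97), FIG1 (0.96), YDR541C (0.91), CSR2 (0.85), YHK8 (0.74) and YLR157W-E (0.72). The more negative effects were in SPL2 (-2.83), PHO84 (-1.99), RSB1 (-1.66), OPT2 (-0.83) and HXK1 (-0.47). These are fitted values. SPL2 and YDR541C lay at the floor in both strains with SNF1, YHK8 there and in snf1Δ, and RSB1 in snf1Δtor1Δ, so the sizes of their differences were not measured.

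Of the genes named for the largest changes or for a difference of effects, 30 differed between ammonia and glucose limitation in the effect in snf1Δ cells. Many of these were named because they passed this test. Over all genes 268 (4.92%) passed. More positive under ammonia limitation were FIT3 (3.54), RGI2 (3.19), HXT1 (2.81), AAD6 (2.78), FIT2 (2.63), STL1 (2.49), BAP2 (2.32), SIT1 (2.28), OYE3 (1.78), PRM6 (0.94), CHA1 (0.94), YPL113C (0.92), YHK8 (0.88), YLR157W-E (0.77) and YDR541C (0.67). More negative were PCK1 (-2.69), CTR3 (-2.07), FBP1 (-2.00), FET4 (-2.00), MLS1 (-1.87), RSB1 (-1.78), YRO2 (-1.76), HXT4 (-1.75), SPL2 (-1.74), DIA3 (-1.28), OPT2 (-1.17), PDC6 (-1.16), PHO84 (-0.89), HXK1 (-0.58) and TOR1 itself (-0.53, from a lower level in snf1Δ under glucose limitation). These too are fitted values, and their size was not measured where a group lay at the floor. That holds under ammonia limitation for BAP2 and FBP1 (both strains), under glucose limitation for PRM6 and OPT2 (both strains) and for HXT1 and STL1 (snf1Δtor1Δ), and in both media for RGI2, YHK8, RSB1 and TOR1.

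Of the 218 probe sets with no gene name, which no comparison uses, 22 (10.1%) passed in snf1Δtor1Δ against snf1Δ under ammonia limitation, 15 higher and 7 lower, a share close to the 10.6% of named genes, with a largest change of 1.14.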

How the results depend on the processing

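The 409 higher genes became 167 with median-centred arrays or arrays centred on genes above the floor and 181 with repeated quantile normalization, and the 169 lower ones became 271 and 269 with the centrings and 211 with the quantiles. With the 6 arrays fitted alone 408 genes passed (278 higher, 130 lower) in place of 578. Array weights, which gave snf1Δtor1Δ replicate 3 a weight of 5.38 and replicate 1 of 0.282, raised the calls to 1811 (1299 higher, 512 lower). Without single arrays the total ranged from 241 to 525, the higher genes from 166 to 346 and the lower from 75 to 181, with the lowest counts without snf1Δ replicate 10. Of the 30 largest rises and falls, 22 kept their call in every setting run, and 8 lost it in at least 1. No named gene that passed reversed its direction.

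The 38 differences to the reference background became 19 with median-centred arrays (10 higher) and 19 with repeated quantile normalization (12 higher), 4 without genes under the 25th percentile (2 higher, 2 lower), and 516 with array weights (443 higher, 73 lower). With the 12 N-lim arrays alone 10 were lower in place of 6. Leaving out single arrays gave 15 to 39 in all, 11 to 34 higher and 4 to 7 lower. Counts fell by over 1.5 times without reference replicates 10 (20) and 11 (22), tor1Δ replicate 11 (20), snf1Δ replicate 10 (15) and snf1Δtor1Δ replicate 1 (23).

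The 268 differences between media became 168 (94 higher) without genes under the 25th percentile and 1026 with array weights (537 higher, 489 lower). Leaving out single arrays gave 143 to 302 in all, 80 to 170 higher and 63 to 143 lower, fewest without snf1Δtor1Δ C-lim replicate 1, and 155 without snf1Δ N-lim replicate 10. With the replicate block on culture numbers, chosen after seeing the data, 136 passed (80 higher, 56 lower). Deviations of equal numbers correlated at 0.14, 0.20 and 0.12 in snf1Δtor1Δ but at -0.21 and -0.29 in snf1Δ, so equal numbers did not deviate together in both strains and were not taken as pairs. No paired analysis was possible because, in the main comparison, snf1Δ carries numbers 9 to 11 and snf1Δtor1Δ numbers 1 to 3. The causes of these shifts were not tested. Changes at the floor have no measurable size.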
